A study of Oryza sativa with 18 samples.

Results

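In rice leaf sheath fed on by the brown planthopper, 110 probe sets of an Affymetrix array had a higher signal after 48 h in the resistant line NIL-Bph6 and a nearly level one in NIL-Bph6-RNAi. These members were selected on 3 measured values. The mean over all 18 arrays had to reach 7 on the log2 scale, the change from 0 h to 48 h in NIL-Bph6 had to be at least 0.8 log2 units, and the change in NIL-Bph6-RNAi had to lie within 0.3 of 0 in either direction. They were found among 16322 probe sets with exactly 1 annotated gene and a mean of 7 or more, out of 57258 probe sets without controls. The 110 probe sets belong to 103 of the 17905 genes that a single-gene probe set represents, 7 of the 103 by a pair of probe sets, and all 110 also passed the intensity filter of the tests below. Only 13 of the 103 genes carry a gene name in the RefSeq table, so most members are given by locus number.

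Each of 6 groups had 3 arrays, labelled as biological replicates, of total RNA from plants 3 weeks old at the stage of 4 leaves. NIL-Bph6 is by its name a near-isogenic line with the planthopper resistance locus Bph6, and the labels call it resistant. NIL-Bph6-RNAi is by its name that line with an RNAi construct, and the labels call it susceptible. Both lines were sampled without insects at 0 h and after 6 h and 48 h of feeding, and the labels give neither the promoter of the construct nor the number of transformed plants behind the line. Groups were taken from titles and source names, since the cultivar and description fields name other lines and partly other times. The gene targeted by the construct was not analysed here. Uninfested plants of the later times were not analysed either, so feeding cannot be told apart from anything else that changed with time.

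The brown planthopper drinks from the phloem of rice leaf sheaths. Rice resistance loci of the Bph series act against it, and Bph6 is known to encode a protein that associates with the exocyst, the complex that tethers secretory vesicles at the plasma membrane. Leaf sheaths keep dividing cells near their base, where D-type cyclins promote and KRP proteins restrain cyclin-dependent kinases, histones package newly made DNA, and growth-regulating factors keep cells proliferating.

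The arrays were alike in scale, with array medians between 5.67 and 6.02. Arrays of a group correlated at a mean r of 0.953 to 0.963 over the probe sets tested, and 17 of 18 correlated best with their own group. Of the markers of other tissues, 3 of 4 green leaf genes had a mean above 7, with a median of 14.19 over the 4, as did 0 of 2 anther genes, 0 of 2 root genes and 1 of 7 seed genes. On the array, control transcripts are measured near both ends, and the excess of the 3′ end, which grows as RNA degrades, was 1.75 to 2.64 log2 units on the NIL-Bph6 0 h arrays and 2.48 to 2.90 on the NIL-Bph6-RNAi 0 h arrays, and lay between 2.11 and 2.78 in the other groups. The number of arrays limits the precision of every value below. In bulk tissue, fewer cells of a type and less RNA per cell cannot be told apart.

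**Figure D1:**
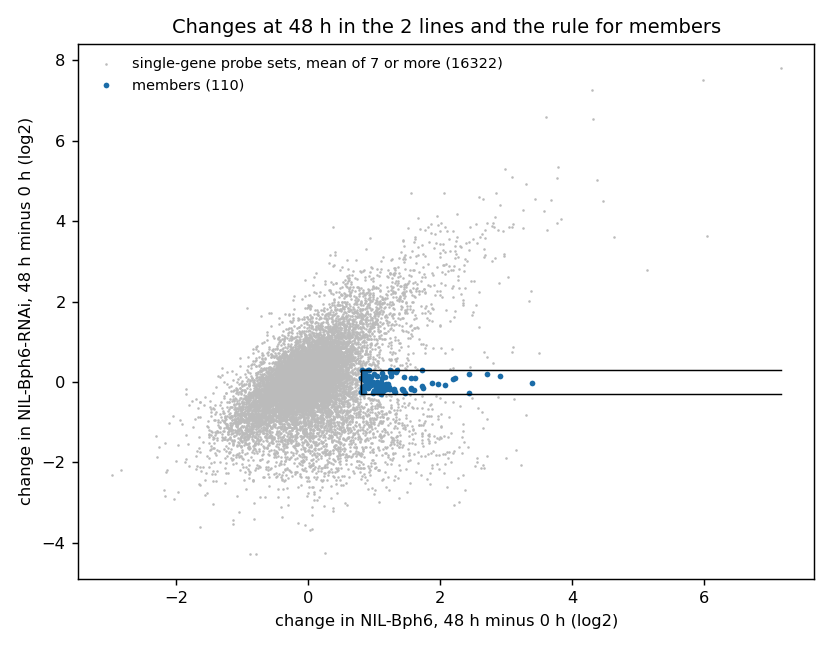
Each point is a single-gene probe set with a mean of 7 or more (grey, 16322), with its change from 0 h to 48 h in NIL-Bph6 on the horizontal axis and in NIL-Bph6-RNAi on the vertical axis, both in log2 units. The lines mark the rule, and the 110 members (blue) lie to the right of 0.8 and within 0.3 of 0, between more numerous probe sets that were higher in both lines and others that were lower in NIL-Bph6-RNAi.

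The members were a small share of the genes higher in NIL-Bph6 at 48 h. Of 16322 probe sets, 1350 had a change of 0.8 or more in that line. In NIL-Bph6-RNAi, 788 of these were above the level range, 689 of them by 0.8 or more, and 452 were below it. The plot of the changes in the 2 lines shows the members as the band between these groups, with no gap on either side. Just inside the limit on the NIL-Bph6 change lay LOC4343741, LOC4335356 and LOC4348555, at 0.803, 0.803 and 0.807, and just outside it LOC4330820, LOC4343767 and LOC4332609, at 0.797, 0.797 and 0.796. At the limit on the NIL-Bph6-RNAi change, LOC4324793, LOC4342522 and LOC4333851 were inside at 0.29, 0.29 and -0.29, and LOC4332950, LOC4346035 and LOC4343487 outside at 0.31, 0.31 and 0.32. At the limit on the level, LOC4342694, GRF1 and LOC4332618 were inside with means of 7.02, 7.05 and 7.06, and LOC4341225, LOC4345399 and LOC4331887 outside with 6.99, 6.94 and 6.88.

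The 110 members had a median change of 1.09 log2 units in NIL-Bph6, with 66 at 2-fold or more and 8 at 4-fold or more, and a median of -0.08 in NIL-Bph6-RNAi. In limma with Benjamini-Hochberg adjustment, the NIL-Bph6 change passed for 101 of 110, against 8.18% of all 32732 probe sets tested, and the difference between the lines' changes passed for 67, against 7.14%. The rule used both contrasts, so nothing is read from these shares. For the other 43 members, the difference between the lines' changes did not pass, and for them the description as rising in the resistant line alone rests on the rule. RAB16B (limma, adjusted p = 0.152) and CBL9 (limma, adjusted p = 0.238) are among these 43. The upper 95% limit of the NIL-Bph6-RNAi change was under 0.8 for 100 members and under the member's own NIL-Bph6 change for 108. The rule had set limits on both changes, so nothing is read from these counts either.

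The averaged signal of the 110 members shows the shape of the pattern. On the 3 NIL-Bph6 arrays their mean was 8.42, 8.60 and 8.38 log2 signal at 0 h, 9.34, 9.32 and 9.28 at 6 h, and 9.75, 9.62 and 9.66 at 48 h. On the NIL-Bph6-RNAi arrays it was 8.62, 8.98 and 8.84 at 0 h, 9.19, 9.04 and 8.73 at 6 h, and 8.88, 8.85 and 8.59 at 48 h. The NIL-Bph6 groups did not overlap each other, and each 6 h and 48 h array of that line was above every NIL-Bph6-RNAi array. The 3 NIL-Bph6 arrays at 0 h were among the 4 lowest of all 18, with NIL-Bph6-RNAi 48 h replicate 3 between them.

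**Figure D2:**
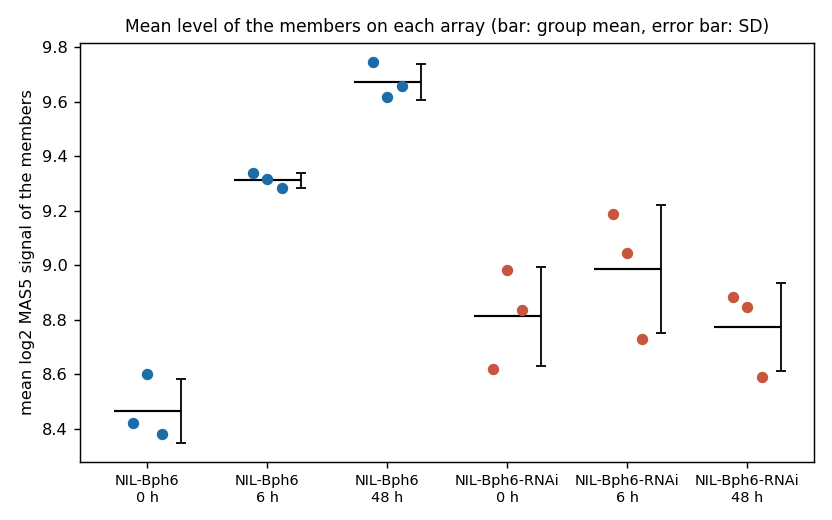
Points are arrays, placed by group on the horizontal axis, with the mean log2 MAS5 signal of the 110 members on the vertical axis; bars are group means and error bars the SD of 3 arrays. The NIL-Bph6 means step up from 8.47 to 9.31 and 9.67, while those of NIL-Bph6-RNAi are 8.81, 8.99 and 8.77.

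The line difference of the members changed sign between 0 h and 48 h. At 0 h, 100 of 110 members had less signal in NIL-Bph6 than in the RNAi line, with a median difference of -0.35 log2 units, and for 28 the NIL-Bph6 arrays were all below those of the RNAi line, against 9.48% of the 16322 single-gene probe sets at that level. At 48 h, 109 of 110 were higher in NIL-Bph6, with a median of 0.87. The 48 h groups did not overlap for 85 members, against 20.9% of those 16322, and the 0 h and 48 h groups of NIL-Bph6 did not overlap for 104, against 19%. These values follow from the arrays the rule used and were not tested. The exceptions at 0 h were H2B.10, LOC4325209, LOC4338962, LOC4329456, ACT3, RAB16B, ABA8OX2, LOC4326608, KRP5 and LOC4328950, which were already higher in NIL-Bph6 by 0.03 to 1.72.

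**Figure D3:**
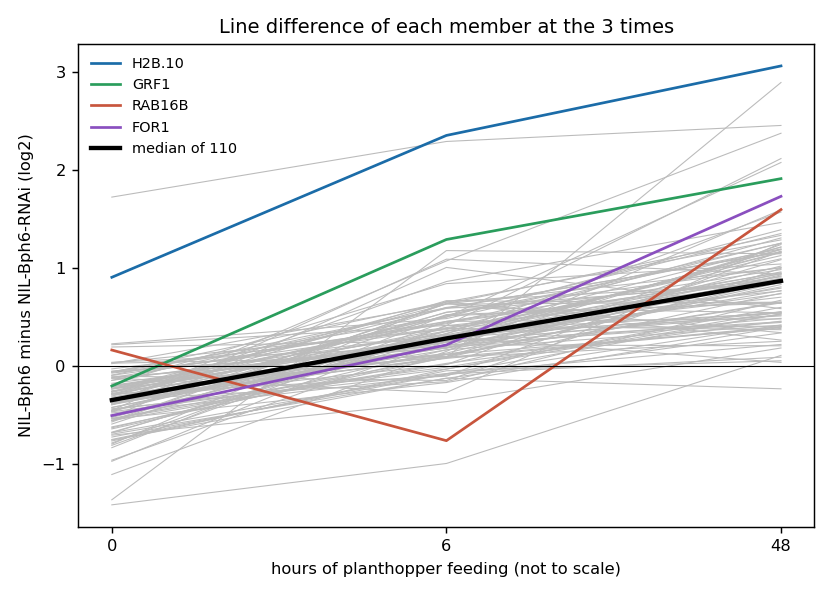
Each grey line is a member, with the time of feeding on the horizontal axis and the difference NIL-Bph6 minus NIL-Bph6-RNAi of group means in log2 units on the vertical axis; 4 named genes are coloured and the black line is the median. The median runs from -0.35 at 0 h through 0.28 at 6 h to 0.87 at 48 h, while RAB16B dips to -0.76 at 6 h.

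The 6 h arrays offered a comparison that the rule had used only through the mean level. At 6 h, the difference NIL-Bph6 minus NIL-Bph6-RNAi was positive for 92 of 110 members, 83.6%, against 51.8% of the 32732 probe sets tested, and its median was 0.28 log2 units against 0.01. The 6 h groups did not overlap, with NIL-Bph6 higher, for 27 members, where 8.17% of the 16322 single-gene probe sets did so. In the other direction this held for 0 members, against 11.3%. One array carried much of the size: without NIL-Bph6-RNAi 6 h replicate 3 the median was 0.15 and 79 members were positive. With array weights, 77 were positive and the median was 0.19. With the 3′ excess of the controls as a covariate, 91 were positive and the median was 0.27.

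**Figure D4:**
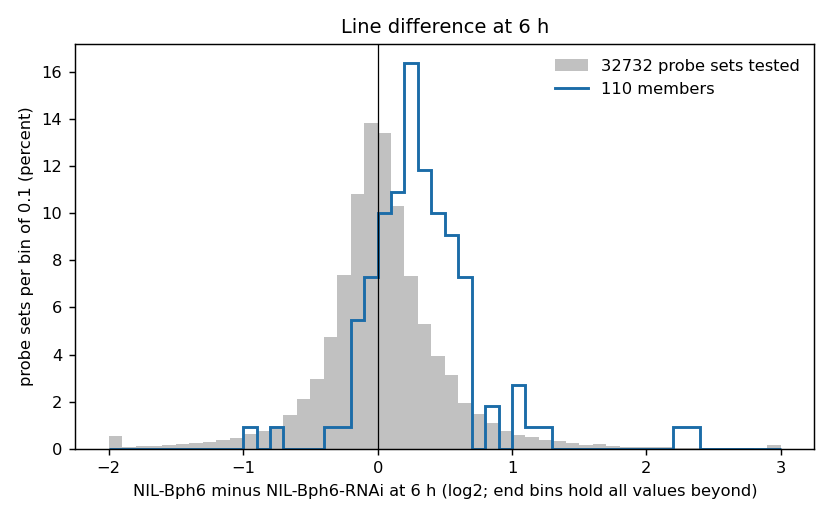
The horizontal axis is the difference NIL-Bph6 minus NIL-Bph6-RNAi at 6 h in log2 units and the vertical axis the percent of probe sets per bin of 0.1, for the 110 members (blue line) and the 32732 probe sets tested (grey). The members' values centre on 0.28, the others on 0.01.

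Single genes rarely passed the test at 6 h. In limma with Benjamini-Hochberg adjustment over 32732 probe sets, 2 members were higher in NIL-Bph6, against 0.315% of all probe sets, and 0 were lower. At an unadjusted p under 0.05 there were 23 members, 20.9%, all of them higher, where 4.99% of all probe sets were. The first of the 2 was H2B.10, a gene for the core histone H2B. Its NIL-Bph6 arrays read 9.16, 8.96 and 10.12 at 0 h, 11.002, 10.91 and 11.13 at 6 h and 12.07, 11.77 and 10.60 at 48 h. Its NIL-Bph6-RNAi arrays read 7.91, 8.53 and 9.08 at 0 h, 8.62, 8.87 and 8.51 at 6 h and 8.38, 8.27 and 8.62 at 48 h. No NIL-Bph6 array at 6 h or 48 h came within 1 log2 unit of any NIL-Bph6-RNAi array, and at 0 h the groups overlapped. The line difference at 6 h was 2.35 (SE 0.35, limma, Benjamini-Hochberg adjusted p = 0.00177).

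The second was LOC4325209, an unnamed protein-coding gene given here after its values were seen. It read 8.70, 9.14 and 9.95 at 0 h, 9.45, 9.81 and 9.997 at 6 h and 10.57, 10.28 and 9.59 at 48 h in NIL-Bph6. In NIL-Bph6-RNAi it read 7.53, 7.37 and 7.71 at 0 h, 7.30, 7.69 and 7.40 at 6 h and 7.49, 7.61 and 7.99 at 48 h. Every NIL-Bph6 array, at 0 h too, was above every NIL-Bph6-RNAi array, so this gene differed between the lines throughout. Its line difference was 1.72 at 0 h, 2.45 at 48 h and at 6 h 2.29 (SE 0.29, limma, Benjamini-Hochberg adjusted p = 0.00024).

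The next by size was GRF1, a growth-regulating factor, a plant transcription factor known in rice as induced by gibberellin in the intercalary meristem of the stem. GRF1 read 5.83, 5.89 and 6.81 at 0 h, 8.11, 7.83 and 8.26 at 6 h and 8.92, 8.01 and 8.27 at 48 h in NIL-Bph6. In the RNAi line it read 6.10, 6.16 and 6.88 at 0 h, 7.09, 7.05 and 6.19 at 6 h and 6.49, 6.60 and 6.38 at 48 h. All NIL-Bph6 arrays at 6 h and 48 h were above all NIL-Bph6-RNAi arrays, while the 0 h groups overlapped. The difference at 6 h was 1.29 (SE 0.32, limma, Benjamini-Hochberg adjusted p = 0.0848), short of the threshold. It passed without NIL-Bph6 0 h replicate 3 (limma, adjusted p = 0.0467) and with array weights (limma, adjusted p = 0.0377), and over the alternatives its direction did not change.

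Most of the NIL-Bph6 change was already present at 6 h. All 110 members were higher at 6 h than at 0 h in NIL-Bph6, by a median of 0.78 log2 units, and 103 were higher again at 48 h than at 6 h. Of all probe sets tested, 46.9% and 55.9% were higher in these comparisons. The 6 h value had covered a median of 69.3% of the change to 48 h, with a range of 17.6% to 141.8%. It was under 25% for 3 members, from 25% to 75% for 70, from 75% to 100% for 30 and above 100% for 7, of which NEK3 is the named one. These counts and shares use the 0 h and 48 h arrays that chose the members and are descriptions. Selection for low 0 h and high 48 h values in NIL-Bph6 raises the counts of 110 and 103.

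A test of the time course set the 6 h mean against the midpoint of the 0 h and 48 h means. It is orthogonal to the changes in the rule, but independent of them only where arrays share the same variance. The array weights were 8.14, 0.65 and 0.38 for NIL-Bph6 0 h and 0.82, 0.69 and 1.55 for NIL-Bph6 48 h. The part of the selection in the NIL-Bph6 deviations was not tested. In NIL-Bph6, 95 of 110 members were above the midpoint, with a median of 0.21 log2 units against -0.01 over all probe sets tested. None passed in limma with Benjamini-Hochberg adjustment, where 0.302% of all probe sets did, and 16, or 14.5%, had an unadjusted p under 0.05, all above, against 5.26% of all probe sets. In NIL-Bph6-RNAi, 79 of 110 were above the midpoint, with a median of 0.17 against 0.02. There, 1 member passed, against 0.0978% of all, and 14 had an unadjusted p under 0.05. Of these, 13 were above, 11.8% of the members, against 4.14% of all probe sets. The difference between the lines' deviations passed for 0 members and for 0% of all probe sets in limma, with 8 members, 7.27%, and 7.57% of all at an unadjusted p under 0.05. So the members' median in NIL-Bph6-RNAi was also slightly above its midpoint at 6 h, a time the rule on level change did not cover.

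The member that passed in NIL-Bph6-RNAi was LOC4329456, an unnamed protein-coding gene given after its values were seen. The RNAi line read 7.03, 7.06 and 6.95 at 0 h, 8.57, 8.12 and 8.03 at 6 h and 7.40, 6.93 and 6.62 at 48 h. NIL-Bph6 read 7.16, 7.55 and 6.98 at 0 h, 8.80, 8.36 and 8.80 at 6 h and 9.23, 8.91 and 9.16 at 48 h. All 3 NIL-Bph6-RNAi arrays at 6 h were above the other 6 arrays of that line. Its 6 h value lay 1.24 above the midpoint (SE 0.19, limma, Benjamini-Hochberg adjusted p = 0.0182). The call was lost with the compared groups fitted alone (limma, adjusted p = 0.0658), without NIL-Bph6-RNAi 6 h replicate 1 (limma, adjusted p = 0.149) and without replicate 2 of that group (limma, adjusted p = 0.0608).

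**Figure D5:**
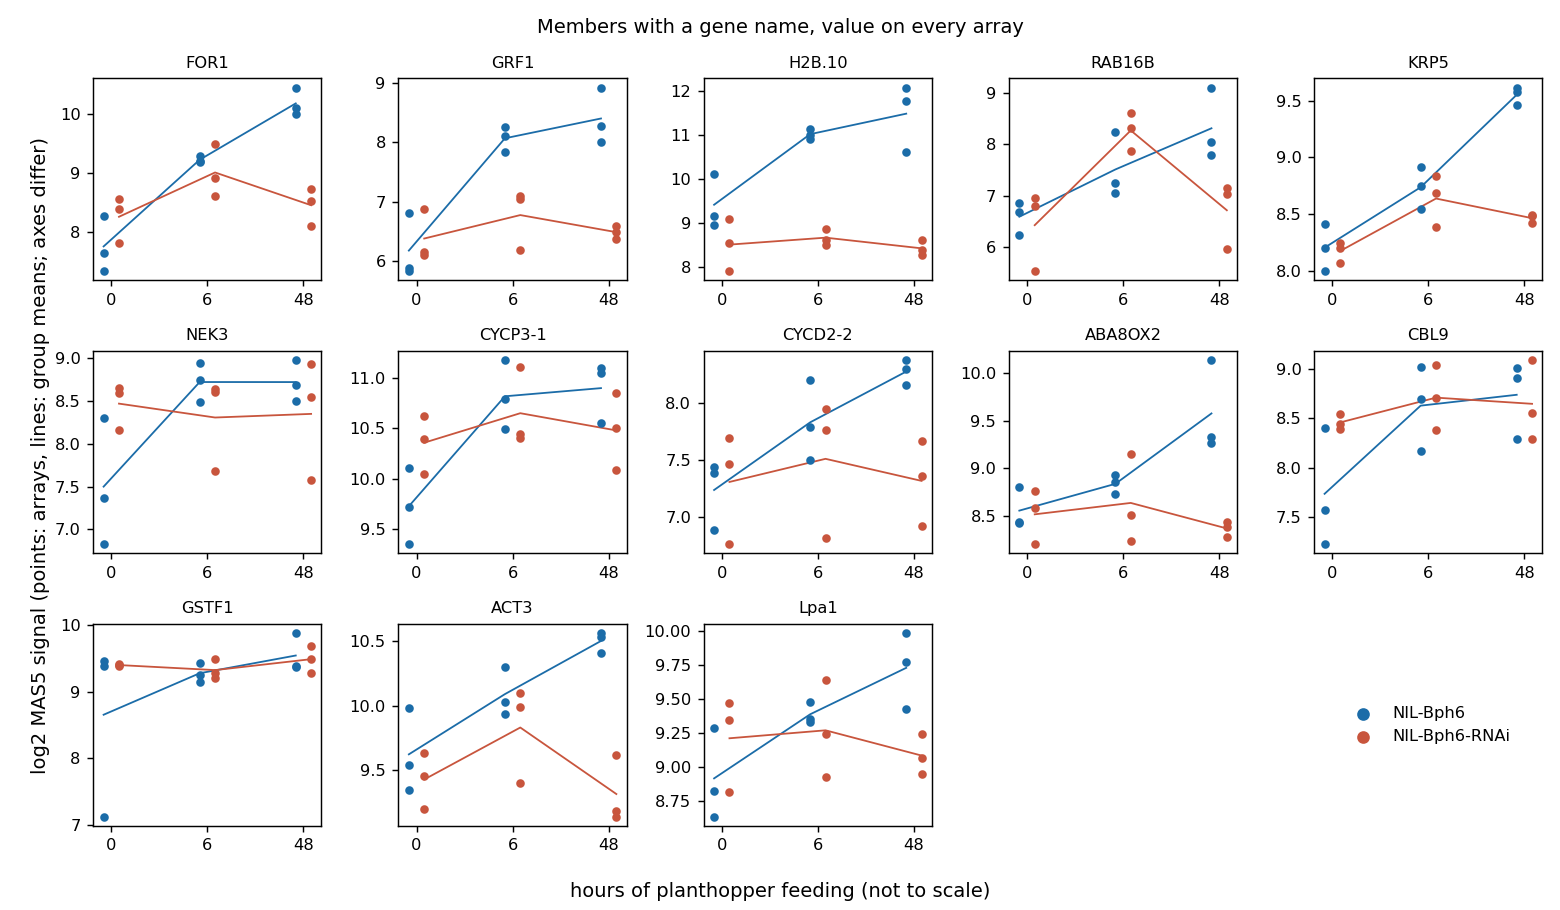
Each panel is 1 of the 13 members with a gene name, with the 3 times on the horizontal axis and the log2 MAS5 signal on the vertical axis; points are arrays, lines join group means, and the vertical axes differ. H2B.10, GRF1 and FOR1 separate the lines most at 48 h, RAB16B peaks at 6 h in NIL-Bph6-RNAi, and for GSTF1 a single NIL-Bph6 0 h array at 7.12 sets the change.

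The named members fall into cell division and growth, cell wall, abscisic acid, calcium, redox and phosphate storage, as the plot of the named members shows. For each of these the 0 h and 48 h values are the ones that chose it, and the 6 h line difference is the independent measure. Of the named members, only H2B.10 and GRF1 had 6 h groups that did not overlap between the lines. Separation at 48 h, given below, comes from arrays that the rule used. FOR1 at LOC4343645, also named PGIP-1, encodes a leucine-rich repeat protein of the polygalacturonase-inhibiting family, which in plants blocks pectin-degrading enzymes and in rice also affects floral organ number. It had the highest change of the named members, 2.43 log2 units against 0.20 in NIL-Bph6-RNAi. FOR1 read 7.65, 8.28 and 7.34 at 0 h, 9.19, 9.29 and 9.21 at 6 h and 10.10, 10.46 and 10.002 at 48 h in NIL-Bph6. With the RNAi construct it read 7.82, 8.40 and 8.56 at 0 h, 9.51, 8.93 and 8.61 at 6 h and 8.73, 8.54 and 8.11 at 48 h. At 48 h the lines did not overlap, at 6 h they did, and the 6 h difference was 0.22 (SE 0.27, limma, Benjamini-Hochberg adjusted p = 0.815). A second gene of the same symbol, LOC4327564, had a mean of 13.35 and changes of 0.08 and 0.19 in the resistant and the RNAi line, and is no member.

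A pair of abscisic acid genes were members. RAB16B encodes a dehydrin, a hydrophilic protein induced by abscisic acid and water loss. RAB16B read 6.69, 6.23 and 6.85 at 0 h, 8.23, 7.25 and 7.05 at 6 h and 7.79, 9.10 and 8.04 at 48 h in NIL-Bph6. The RNAi line gave 6.80, 6.95 and 5.53 at 0 h, 7.88, 8.32 and 8.61 at 6 h and 7.15, 5.96 and 7.04 at 48 h. Its highest NIL-Bph6-RNAi values were those of 6 h, where all 3 arrays were above every other array of that line. RAB16B was thus within the level range there only between 0 h and 48 h. That change was 0.29 (SE 0.44), close to the limit of 0.3 and imprecise. The 6 h line difference was -0.76 (SE 0.44, limma, Benjamini-Hochberg adjusted p = 0.565), and its 6 h value in NIL-Bph6-RNAi lay 1.70 above the midpoint (limma, Benjamini-Hochberg adjusted p = 0.127).

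ABA8OX2 encodes an abscisic acid 8′-hydroxylase, which starts the breakdown of the hormone. ABA8OX2 read 8.43, 8.80 and 8.42 at 0 h, 8.93, 8.85 and 8.72 at 6 h and 9.27, 10.14 and 9.33 at 48 h in NIL-Bph6. Against these, NIL-Bph6-RNAi read 8.20, 8.76 and 8.58 at 0 h, 9.15, 8.24 and 8.51 at 6 h and 8.38, 8.28 and 8.43 at 48 h. The 3 NIL-Bph6 arrays at 48 h were the highest of all 18, and only 27.6% of the change was present at 6 h.

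Other genes of cell division and the cytoskeleton stood beside H2B.10. KRP5 encodes an inhibitor of cyclin-dependent kinases. KRP5 read 8.20, 8.001 and 8.42 at 0 h, 8.91, 8.55 and 8.75 at 6 h and 9.61, 9.58 and 9.46 at 48 h in NIL-Bph6. For comparison, the RNAi line read 8.25, 8.07 and 8.21 at 0 h, 8.69, 8.84 and 8.39 at 6 h and 8.49, 8.49 and 8.42 at 48 h. The spread within groups was small, the 48 h NIL-Bph6 arrays were the 3 highest of 18, and the change of 0.29 in NIL-Bph6-RNAi was close to the limit of 0.3.

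CYCD2-2 encodes a D-type cyclin, of the class that starts the passage from G1 to S phase. CYCD2-2 read 7.44, 6.89 and 7.38 at 0 h, 8.20, 7.79 and 7.50 at 6 h and 8.37, 8.16 and 8.30 at 48 h in NIL-Bph6. For the RNAi line the values were 6.76, 7.69 and 7.46 at 0 h, 7.77, 7.95 and 6.82 at 6 h and 7.36, 7.67 and 6.92 at 48 h. At 48 h alone the lines did not overlap.

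CYCP3-1 encodes a P-type cyclin, a class related to the yeast phosphate-signalling cyclin PHO80. CYCP3-1 read 9.72, 10.11 and 9.36 at 0 h, 10.49, 11.17 and 10.78 at 6 h and 11.09, 10.55 and 11.04 at 48 h in NIL-Bph6. Its values with the construct were 10.05, 10.62 and 10.40 at 0 h, 11.10, 10.44 and 10.40 at 6 h and 10.50, 10.85 and 10.09 at 48 h. The lines overlapped at 6 h and 48 h, and the difference of -0.63 at 0 h was larger in size than that of 0.42 at 48 h.

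NEK3 encodes a protein kinase of the NIMA-related family, which acts in mitosis and on microtubules. NEK3 read 7.36, 8.30 and 6.83 at 0 h, 8.48, 8.74 and 8.94 at 6 h and 8.69, 8.50 and 8.97 at 48 h in NIL-Bph6. In the susceptible line it read 8.16, 8.65 and 8.59 at 0 h, 8.61, 7.68 and 8.63 at 6 h and 8.54, 8.93 and 7.58 at 48 h. The lines overlapped at every time, and the line difference went from -0.97 at 0 h to 0.37 at 48 h.

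ACT3 encodes an actin, a building block of the cytoskeleton. ACT3 read 9.54, 9.35 and 9.98 at 0 h, 10.30, 10.03 and 9.94 at 6 h and 10.56, 10.53 and 10.41 at 48 h in NIL-Bph6. NIL-Bph6-RNAi gave 9.20, 9.63 and 9.46 at 0 h, 9.99, 10.10 and 9.40 at 6 h and 9.14, 9.19 and 9.62 at 48 h for this gene. The lines did not overlap at 48 h. A second ACT3 probe set with a mean of 12.73 had changes of 0.58 and -0.11 in the resistant and the RNAi line, and another had a mean of 4.84, under the level of the rule.

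The remaining 3 named members overlapped between the lines at 6 h. CBL9 encodes a calcineurin B-like protein, a calcium sensor that acts on CIPK kinases. CBL9 read 7.57, 8.41 and 7.23 at 0 h, 8.17, 9.02 and 8.70 at 6 h and 9.01, 8.29 and 8.91 at 48 h in NIL-Bph6. As for NIL-Bph6-RNAi, it read 8.44, 8.39 and 8.55 at 0 h, 9.04, 8.38 and 8.70 at 6 h and 8.56, 9.09 and 8.30 at 48 h. Its levels at 48 h overlapped between the lines, and the line difference of -0.72 at 0 h was the larger one, against 0.09 at 48 h. A second CBL9 probe set with a mean of 7.78 had changes of 0.92 and 0.45 in the resistant and the RNAi line, the latter outside the limit of the rule.

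GSTF1 encodes a glutathione S-transferase of the phi class, which joins glutathione to reactive compounds. GSTF1 read 9.45, 9.38 and 7.12 at 0 h, 9.14, 9.25 and 9.43 at 6 h and 9.88, 9.36 and 9.38 at 48 h in NIL-Bph6. The other line held 9.38, 9.41 and 9.40 at 0 h, 9.49, 9.28 and 9.20 at 6 h and 9.69, 9.49 and 9.28 at 48 h. Apart from NIL-Bph6 0 h replicate 3 at 7.12, all 17 values lay between 9.14 and 9.88, so this membership rests on 1 array. The lines overlapped at each time.

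Lpa1 is named for a rice mutant with low phytic acid, the phosphate store of seeds. Lpa1 read 8.63, 9.29 and 8.83 at 0 h, 9.35, 9.47 and 9.33 at 6 h and 9.98, 9.43 and 9.77 at 48 h in NIL-Bph6. Values of 8.82, 9.34 and 9.47 at 0 h, 9.64, 9.24 and 8.92 at 6 h and 8.95, 9.06 and 9.24 at 48 h were read in NIL-Bph6-RNAi. At 48 h the lines did not overlap, by a difference of 0.64.

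The 4 members with the largest change had no gene name and are given after their values were seen. LOC4331741 changed by 3.39 log2 units, LOC4326971 by 2.91, LOC4340512 by 2.70 and LOC4346301 by 2.43 in NIL-Bph6. LOC4331741 read 7.45, 7.77 and 8.58 at 0 h, 10.62, 9.65 and 10.31 at 6 h and 11.86, 11.31 and 10.80 at 48 h in NIL-Bph6. In the line with the construct it read 6.98, 9.43 and 8.98 at 0 h, 10.68, 9.86 and 9.79 at 6 h and 8.58, 8.16 and 8.56 at 48 h. At 6 h both lines stood at nearly the same level, and only at 48 h did they part, with NIL-Bph6-RNAi back in the range of its 0 h arrays.

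LOC4326971 read 5.80, 5.84 and 6.38 at 0 h, 8.56, 7.57 and 8.46 at 6 h and 9.69, 8.77 and 8.28 at 48 h in NIL-Bph6. Its NIL-Bph6-RNAi values were 5.73, 6.71 and 6.71 at 0 h, 7.18, 7.40 and 6.81 at 6 h and 5.95, 6.70 and 6.96 at 48 h. Here the lines did not overlap at 6 h either, but the difference missed the threshold, at 1.07 (SE 0.39, limma, Benjamini-Hochberg adjusted p = 0.289). Of all 110 members, 18 had a negative line difference at 6 h, RAB16B, CBL9 and GSTF1 among them, and the lowest was -0.99 at LOC4327909.

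Other probe sets of the same genes were looked at as a description, since they come from the same arrays. Of 33 further probe sets for 25 member genes, 14 had a mean of 7 or more. The 33 leave out all members, also where a gene had a pair of them, so none of the 14 could meet the whole rule. Of these 14, 12 had a positive change in NIL-Bph6, with a median over the 14 of 0.57. In NIL-Bph6-RNAi 9 were within 0.3 of 0. The 2 that reached 0.8 in NIL-Bph6 were those of CBL9 and LOC4344513, with changes of 0.45 and -0.40 in NIL-Bph6-RNAi. In RefSeq gene order, 1 pair of members, LOC4336729 and LOC4336730, were direct neighbours.

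Gene lists matched on gene names placed 12 of the 13 named members in 6 of 26 lists, and the other 20 lists held none. The list of histones, cell cycle and cytoskeleton genes held 6 members. Of its 172 probe sets for 143 genes, 35 rose and 5 fell in NIL-Bph6 at 48 h (limma, Benjamini-Hochberg). These were 20.3% and 2.91%, against 8.18% and 7.48% of all probe sets tested. In NIL-Bph6-RNAi 15 rose and 62 fell, or 8.72% and 36.0% against 16.7% and 16.6%. The difference between the lines' changes passed upward for 58 and downward for 3, or 33.7% and 1.74% against 7.14% and 4.09%. The list medians were 0.27 in NIL-Bph6, -0.38 in NIL-Bph6-RNAi and 0.61 for the difference, where all probe sets gave 0.00, 0.01 and -0.07. The 6 members are among the 35, chosen on the NIL-Bph6 change. The rule limited both changes that make up the difference, and H2B.10 is among the 58, so that share partly reflects the rule. The rule set the members' level values in NIL-Bph6-RNAi, so these are not compared with the rest of the list. Among the non-members, CYCB1-1, a mitotic B-type cyclin, rose by 1.89 log2 units in NIL-Bph6 (limma, adjusted p = 0.0142) and fell by 1.72 in NIL-Bph6-RNAi (limma, adjusted p = 0.0122). The count of 35 changed when an array was left out. It was 14 without NIL-Bph6 0 h replicate 1 and 17 without replicate 2 of that group. Leaving out the 48 h replicate 1 of that line gave 16, and its replicate 3 gave 15. Such a fit also had fewer arrays in the group, and the part of this was not tested. Weighting the arrays gave 71.

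The list of growth-regulating factors and meristem genes, which holds GRF1, had 22 probe sets for 21 genes. In NIL-Bph6 7 rose, 31.8% against 8.18% of all probe sets, and 0 fell. In NIL-Bph6-RNAi 3 rose and 4 fell, shares of 13.6% and 18.2% that are near the 16.7% and 16.6% of all. The medians were 0.44 and -0.40. The difference between lines passed upward for 6 and downward for 2, or 27.3% and 9.09% against 7.14% and 4.09%. GRF1, chosen on these changes, is among the 7 and the 6. Another family member, GRF6, rose by 1.99 log2 units in NIL-Bph6 (limma, adjusted p = 0.00205) and fell by 1.43 in NIL-Bph6-RNAi (limma, adjusted p = 0.00834), so it lay outside the level range that GRF1 met. The count of 7 was 4 without NIL-Bph6 48 h replicate 1. The meristem markers give no separate view of this, since 11 of the 12, GRF1 among them, are in the growth or the cell cycle list. The one outside, OSH1, had a mean of 3.47, and 7 of the 12 had a mean above 7. The summed linear signal of the 12, of which GRF11 and PCNA were the brightest with means of 11.90 and 10.80, was 5324 to 6896 at 0 h, 7440 to 8478 at 6 h and 8074 to 10066 at 48 h in NIL-Bph6, and 5300 to 6943, 5932 to 7544 and 5845 to 6159 in NIL-Bph6-RNAi. The part of a changed share of dividing tissue in these results was not tested.

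The cell wall list, with FOR1 as its member, had 80 probe sets for 69 genes. In NIL-Bph6 17 rose and 1 fell, or 21.2% and 1.25% against 8.18% and 7.48% of all probe sets. In NIL-Bph6-RNAi 10 rose and 34 fell, or 12.5% and 42.5% against 16.7% and 16.6%. The difference passed upward for 24, 30% against 7.14%, and downward for 0. FOR1, chosen on these changes, is among the 17 and the 24. The medians were 0.31, -0.68 and 0.85. The cellulose synthase gene CESA6 was at -0.29 in the resistant line (limma, adjusted p = 0.522) and -1.42 in NIL-Bph6-RNAi (limma, adjusted p = 0.000611). Beside this list, secondary wall markers fell in NIL-Bph6-RNAi, while phloem markers were split. The 3 secondary wall markers CESA4, CESA7 and CESA9, which are themselves in the list, all fell there, and their summed linear signal was 11241 to 13719 at 0 h and 2520 to 6930 at 48 h, against 4862 to 12206 and 7160 to 8331 in NIL-Bph6. Of 7 phloem markers, none of them in the list, 3 fell and 1 rose in NIL-Bph6-RNAi, with sums of 30594 to 35661 at 0 h and 20388 to 25152 at 48 h, against 28459 to 33136 and 30436 to 35985 in NIL-Bph6. The brightest in these sums were RSs2 and RSS1, with means of 13.57 and 13.44. They changed by -2.06 and 0.23 in NIL-Bph6-RNAi, so the lower phloem sum reflects RSs2 more than the set. The part of a changed tissue makeup in the list's counts was not tested. The count of 17 was 10 without NIL-Bph6 0 h replicate 1, 11 without NIL-Bph6 48 h replicate 3 and 30 with array weights.

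The other 3 lists are given against the same shares of all probe sets, 8.18% up and 7.48% down in NIL-Bph6 and 16.7% and 16.6% in NIL-Bph6-RNAi. Their members were chosen on these changes and are left in the lists. RAB16B and ABA8OX2 are among the 7 abscisic acid rises in NIL-Bph6, and CBL9 is among the 23 calcium rises. Of 26 abscisic acid and dehydration probe sets for 23 genes, 7 rose and 0 fell in NIL-Bph6, or 26.9% and 0%, and 9 rose and 1 fell in NIL-Bph6-RNAi, or 34.6% and 3.85%, with medians of 0.23 and 0.33. The paralogue ABA8OX1 rose by 2.82 log2 units in NIL-Bph6 (limma, adjusted p = 1.53e-05) and by 3.85 in NIL-Bph6-RNAi (limma, adjusted p = 1.08e-07). The difference between lines passed upward for 1, which is ABA8OX2, and downward for 3, or 3.85% and 11.5% against 7.14% and 4.09%. The count of 7 was 2 without NIL-Bph6 0 h replicate 2 or without NIL-Bph6 48 h replicate 2, and 12 with array weights. Of 95 calcium signalling probe sets for 78 genes, 23 rose and 4 fell in NIL-Bph6, or 24.2% and 4.21%. In NIL-Bph6-RNAi 38 rose and 12 fell, or 40% and 12.6%. The medians were 0.10 and 0.35, and the difference passed upward for 5 and downward for 7, or 5.26% and 7.37%. Of 83 redox probe sets for 60 genes, 5 rose in NIL-Bph6, 6.02% and so below the share of all, and 18 fell, 21.7%. In NIL-Bph6-RNAi 19 rose and 19 fell, 22.9% each. The medians were -0.07 and 0.00, and the difference passed upward for 4 and downward for 7, or 4.82% and 8.43%. The redox count of 5 was 2 or 3 without most single arrays, NIL-Bph6 48 h replicates 1 and 3 giving 2.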

How the data were processed

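Total RNA of leaf sheath was amplified and biotin-labelled from the 3′ end and hybridised to Affymetrix rice arrays, per the labels' protocols. The deposited values are log2 signals, and the submitters' processing notes name MAS5 without a version. The log base was read from the values: linear signals trimmed by 2% at each end average 500.1 on every array. The sources used here name no other step by the authors.

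Of 57381 probe sets, 123 controls were left out, and 32732 were tested by a filter that asked for values over the median of 5.78 on 3 or more arrays. A platform annotation gave 1 gene to 22436 probe sets, several to 95 and none to 34850. A RefSeq table of assembly ASM3414082v1 gave names and gene order. In R 4.3.3, limma 3.58.1 fitted 6 group means over 18 arrays, moderating variances along an intensity trend. A call is a Benjamini-Hochberg adjusted p under 0.05 over all 32732. Contrasts were the change from 0 h to 48 h in each line, their difference, the lines at 6 h, and the 6 h mean against the midpoint of 0 h and 48 h in each line and between lines. The last 3 are orthogonal to the changes that chose the members, and independent of them only where arrays share the same variance. The fits were also run on simulated data in which each probe set had the same spread on all arrays. That simulation therefore does not cover unequal variances between arrays.

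Members and lists were chosen with earlier results of these data known. Named genes are members with a name (up to 15 by change), those called at 6 h, up to 4 per list, and 3 on either side of each limit. Lists covered hormones, defence, wall, signalling, metabolism and growth, and were matched on gene names alone, so unnamed genes are in none. Promoter motifs were not searched, as no promoter sequences were used here. Alternatives changed the normalization, an added offset before the logarithm (9.67), the filter, the trend, a replicate block, array weights, a 3′ to 5′ covariate, the groups fitted and the limits of the rule, and left out each array.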

Additional observations from a re-analysis of the deposited data

How the results depend on the processing

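The rule found 110 members as reported, 66 with a limit of 1 on the NIL-Bph6 change, and 90 to 133 when 1 array was left out. Between 79 and 149 were found under the other limits and normalizations, and group medians gave 108, of which 77 were shared. Of the 6 h comparisons, the 2 members higher in NIL-Bph6 were 2 or 3 under every alternative run. Members called above the midpoint in NIL-Bph6 at an adjusted p under 0.05, 0 as reported, were 4 with array weights and 0 to 1 with an array left out. In NIL-Bph6-RNAi such calls, 1 as reported, were 2 with array weights, 0 with the compared groups alone and 0 to 2 with an array left out.

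Counts of rises in NIL-Bph6 at 48 h changed in 5 lists when single arrays were left out. With an array left out they ranged from 14 to 39 for the cell cycle list, 10 to 23 for the cell wall, 4 to 8 for growth-regulating factors, 2 to 9 for abscisic acid and 2 to 4 for redox. Array weights, which gave NIL-Bph6 0 h replicate 1 a weight of 8.14, raised them to 71, 30, 12 for abscisic acid and 8 for redox. Redox also gave 2 with centred medians and 3 with no filter, with no trend, with the compared groups alone and with the replicate block. The cause was not tested.

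Replicate numbers did not pair the samples: deviations of arrays with the same number correlated at a mean r of 0.003 (-0.25 to 0.28), against -0.001 for different numbers. The block changed no other count by over 1.5 times. The midpoint tests are independent of the changes in the rule only where arrays share the same variance. Leaving out a 0 h or 48 h array, or weighting arrays, ends this even then. What can be called from 3 replicates changed when single arrays were left out. Dim probe sets are imprecise, and signal shared between related genes was not tested.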
